A study of Mus musculus with 6 samples.

Results

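The β-catenin destruction complex was described here by the transcripts of 9 genes: the scaffold genes Axin1, Apc and Amer1, the kinase genes Csnk1a1, Gsk3a and Gsk3b, the ubiquitin ligase genes Btrc and Fbxw11, and Ctnnb1, which encodes β-catenin itself. They were chosen by exact gene name from the deposited count table, which gave 9 rows out of 42747, and all 9 passed the filter on low counts that left 18383 genes for testing. The samples were whole testes of mouse embryos at E16.5, 3 labelled cKO and 3 labelled WT, each from 1 mouse. The series title concerns CK1α in Sertoli cells, which support the germ cells inside the testis cords. CK1α is the kinase that Csnk1a1 encodes, and cKO is taken here to mean its conditional knockout in those cells. The labels name no driver of the deletion, no deleted exons, no strain and no treatment. The comparison asked whether the genes that build the complex are transcribed at another level when 1 of its kinases is targeted.

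β-catenin is a protein of cell junctions and also a co-activator of transcription. Without a Wnt signal, axin and APC hold free β-catenin while casein kinase 1α places a first phosphate on it and glycogen synthase kinase 3 adds further ones, and the F-box proteins encoded by Btrc and Fbxw11 then recognise the phosphorylated protein and pass it to a ubiquitin ligase for destruction. Wnt signalling halts this process, so that β-catenin gathers and switches on targets that include Axin2, a second axin gene that acts as a feedback brake. In the embryonic gonad, high β-catenin activity belongs to the ovarian programme, and it is kept low in Sertoli cells of the testis. This control acts on protein, and the values below are transcript levels.

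Promoter sequence is shown for 3 genes on which the comparison turns: Ctnnb1, whose product is degraded, Axin2, the axin gene that rose, and Gsk3a, the 1 member with a motif match. Of the 9 members, 4 (Gsk3a, Gsk3b, Fbxw11 and Ctnnb1) were matched in the RefSeq promoter table of build GRCm38.p6, which covers 250 bases before to 50 after an annotated start. The windows are chr9:120933150-120933449 on the plus strand for Ctnnb1, chr11:108920099-108920398 on the plus strand for Axin2 and chr7:25237802-25238101 on the minus strand for Gsk3a, each printed from 5′ to 3′ along its gene. Ctnnb1 has a further window for another annotated start, chr9:120933328-120933627, which was searched but is not printed. Capitals mark a match to CTTTGAT or CTTTGAA, the core letters recognised by TCF/LEF factors, which bring β-catenin to DNA, searched on both strands.
Ctnnb1: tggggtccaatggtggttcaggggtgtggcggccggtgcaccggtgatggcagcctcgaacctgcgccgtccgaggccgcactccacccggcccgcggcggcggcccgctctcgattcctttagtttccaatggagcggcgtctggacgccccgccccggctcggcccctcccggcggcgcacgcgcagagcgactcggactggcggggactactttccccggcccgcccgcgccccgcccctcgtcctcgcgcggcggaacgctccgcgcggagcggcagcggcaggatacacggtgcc
Axin2: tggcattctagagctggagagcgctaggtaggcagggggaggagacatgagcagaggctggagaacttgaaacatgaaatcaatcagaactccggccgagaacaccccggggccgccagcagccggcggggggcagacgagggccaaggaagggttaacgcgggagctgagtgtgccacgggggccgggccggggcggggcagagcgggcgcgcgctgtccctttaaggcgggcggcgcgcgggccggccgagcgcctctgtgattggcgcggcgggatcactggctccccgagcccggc
Gsk3a: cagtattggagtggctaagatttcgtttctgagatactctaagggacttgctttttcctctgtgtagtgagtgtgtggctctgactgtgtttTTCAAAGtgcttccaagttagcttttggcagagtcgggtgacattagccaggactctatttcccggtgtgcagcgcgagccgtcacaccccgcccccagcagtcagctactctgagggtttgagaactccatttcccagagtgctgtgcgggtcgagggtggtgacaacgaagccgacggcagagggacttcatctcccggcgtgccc
The Gsk3a window held 1 match, TTCAAAG on the printed strand, starting 158 bases before the annotated start. The other 4 windows of members and the Axin2 window held none, and 8.65% of all 32851 windows of this length held at least 1. A match is only a run of letters, and its absence says nothing about sites outside the window. The printed Ctnnb1 and Axin2 windows were rich in G and C, at 75.3% and 70.0% of bases against 54.3% for Gsk3a.

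All 9 genes were expressed, and Ctnnb1 stood far above the rest. Levels of different genes were compared as the authors' FPKM, which divides counts by gene length. In the WT testes Ctnnb1 was at 168, 182 and 164 FPKM, a mean of 171 ± 9.54 (SD, n = 3) that exceeded 99.3% of tested genes. Csnk1a1 came next at 35.0 ± 2.32 FPKM, and the WT libraries of these 2 genes did not overlap. Fbxw11 (29.5 ± 2.52 FPKM), Axin1 (25.8 ± 3.57) and Gsk3a (25.5 ± 0.571) followed, and neighbours among these 3 overlapped in range. Gsk3b was lower at 18.4 ± 1.54 FPKM, apart from Gsk3a above it and from Btrc below it. Btrc (13.8 ± 0.623 FPKM) and Apc (13.2 ± 1.62) overlapped, and Amer1 had the lowest mean at 11.8 ± 0.264 FPKM, below every WT value of Apc. The least abundant of the 9 in WT by FPKM thus still exceeded 68.8% of tested genes. This order rests on the length listed for each whole gene, and transcript forms of other lengths were not separated.

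By group means the order in the cKO testes was the same from Ctnnb1 (199 ± 15.3 FPKM) down to Btrc (12.2 ± 0.781 FPKM), and again Fbxw11, Axin1 and Gsk3a overlapped as neighbours. The bottom of the order differed. Apc, at 9.81 ± 0.953 FPKM, was the lowest of the 9 in each cKO library, whereas Amer1, at 12.1 ± 1.95 FPKM in cKO, was the lowest in each WT library. The cKO ranges of Apc and Amer1 overlapped, as did those of Amer1 and Btrc, and Amer1 lay above Btrc in cKO libraries 1 and 3. Of the FPKM summed over the 9 genes, Ctnnb1 made up 49.1 to 50.7% in WT and 52.4 to 56.8% in cKO, while Apc made up 3.50 to 4.52% in WT and 2.39 to 2.91% in cKO.

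**Figure D1:**
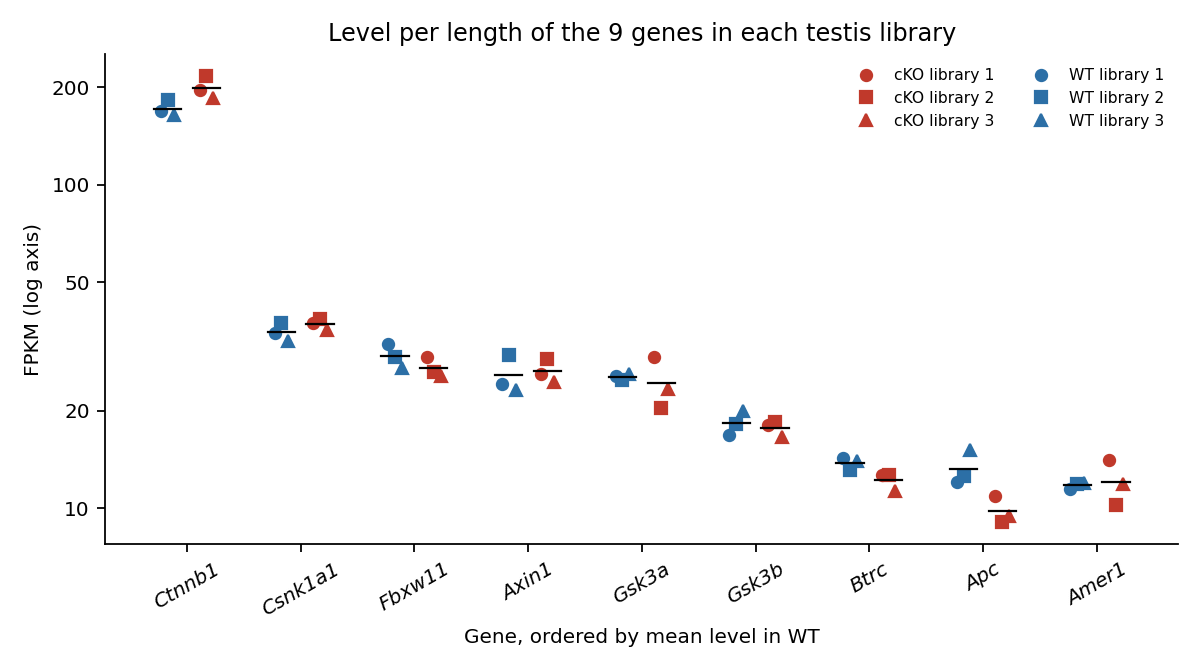
FPKM of the 9 genes (log axis) in each of the 6 libraries, WT in blue and cKO in red, with genes ordered by their WT mean and black bars at the group means. Ctnnb1 lies at 164 to 216 FPKM, above the other 8 genes, and the Apc points of cKO lie below those of WT.

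None of the 9 members was called as different between cKO and WT by edgeR's quasi-likelihood test at an adjusted p under 0.05, where 3.35% of all tested genes were called (1.5% higher and 1.84% lower in cKO). By the DESeq2 Wald test 1 of the 9 (Apc) was called, where 6.93% of the genes with an adjusted p were called, and by limma-voom none, where 3.28% were. At an unadjusted p under 0.05 edgeR gave 1 of the 9, again Apc, where 15.8% of tested genes lay. The cKO and WT values did not overlap for 3 of the 9 (Ctnnb1 higher, Apc and Btrc lower), where 21.6% of tested genes were so separated (10.7% higher and 10.9% lower). The median log2 fold change of the 9 was -0.06, with 4 positive and 5 negative, against 0.00 over all tested genes. Their median absolute log2 fold change was 0.08, against 0.22 over all tested genes. The tested genes were not matched to the members in level, and each member exceeded at least 68.8% of them in WT. These 2 medians are thus not set side by side at like levels. The 95% confidence intervals ran at the extremes from 0.606-fold for Apc to 1.41-fold for Ctnnb1, so no interval reached a 2-fold difference in either direction. In what follows, single libraries are given in CPM, which are counts put on a shared library size, and fold changes are cKO against WT from edgeR.

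The same libraries differed in markers of cell types, which may bear on any of the whole-testis values. Of 14 Sertoli cell markers 12 were lower in cKO, with a median log2 fold change of -1.96, and their summed level was 1270 to 1714 CPM in cKO and 3087 to 4053 CPM in WT. The count was 9 to 13 over the 16 alternatives. Leading them by p were Hsd17b3 (log2 fold change -3.31, edgeR adjusted p = 1.35e-05), an enzyme of testosterone synthesis, and the defensin gene Defb19 (-2.56, edgeR adjusted p = 5.06e-06). Not called by edgeR were Gata4 (-0.48, edgeR adjusted p = 0.0579) and Wt1 (0.23, edgeR adjusted p = 0.37). Wt1 was the only Sertoli cell marker with a positive log2 fold change, and every cKO value of it lay above every WT value. The 6 fetal Leydig cell markers summed to 5005 to 6844 CPM in cKO and 3794 to 4497 CPM in WT, and none was called by edgeR (4 at an unadjusted p under 0.05, 2 by DESeq2 and 1 by limma-voom). For interstitial (12090 to 20370 against 8285 to 13530 CPM) and germ cell markers (507 to 946 against 777 to 1149 CPM) the summed levels overlapped, and none of these markers was called by edgeR. All 7 tested interstitial markers had a positive log2 fold change (median 0.47) and an unadjusted p under 0.05, and DESeq2 called 3 of them higher and limma-voom none. Of the 8 tested germ cell markers 7 had a negative log2 fold change (median -0.26) and 2 an unadjusted p under 0.05, and DESeq2 called 1 lower and limma-voom none. Without cKO library 1 edgeR called 2 interstitial markers higher, and without cKO library 2 it called 2 germ cell markers lower. Without WT library 2 it called 1 Leydig cell marker higher. Of the remaining lists, edgeR called 1 higher and 1 lower of 5 peritubular myoid markers, 1 higher of 5 endothelial, 1 higher of 3 erythroid and 1 higher of 4 mesonephros markers. Each of these calls was lost without at least 1 library: the endothelial and erythroid calls without cKO library 3, WT library 1 or WT library 3, the mesonephros call without WT library 3, the higher myoid call without cKO library 1 or any 1 WT library, and the lower myoid call without cKO library 3, WT library 2 or WT library 3. The summed levels of Sertoli, Leydig, myoid and mesonephros markers did not overlap between groups. Myoid markers were at 662 to 770 CPM in cKO and 832 to 1017 CPM in WT. Mesonephros markers were at 43.0 to 59.4 CPM in cKO and 26.9 to 32.7 CPM in WT. The lower myoid call was Ptch1, at 238, 193 and 212 CPM in cKO and 315, 407 and 451 CPM in WT. Des was the higher one, while Acta2, Myh11 and Cnn1 overlapped between groups and were not called. Of 5 leukocyte markers edgeR called none, nor did the other 2 tools (1 at an unadjusted p under 0.05). No Sertoli, Leydig or interstitial marker was at 0 in any library, and of the germ cell markers Nanos2 was at 0 in 2 libraries. In a whole organ, fewer cells of a type and less RNA per cell cannot be told apart, and the part of these shifts in the members' values was not tested.

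For the 3 kinase genes the cKO and WT libraries overlapped. Csnk1a1, the targeted gene, had 396, 405 and 377 CPM in the cKO libraries and 371, 396 and 348 CPM in the WT libraries, so the groups overlapped and the libraries labelled cKO were not the lower ones. The fold change was 1.06 with a 95% confidence interval of 0.885 to 1.26 (edgeR adjusted p = 0.798), so a fall of more than 11.5% in the whole-testis transcript count lay outside the interval. This count covers the whole gene in every cell type of the organ, so it checks neither the deletion nor the labels. Gsk3b, 1 of 2 genes for glycogen synthase kinase 3, was at 179, 183 and 165 CPM in cKO and 169, 181 and 198 CPM in WT. Its fold change was 0.962 (95% confidence interval 0.807 to 1.15, edgeR adjusted p = 0.864), and the groups overlapped. Gsk3a, which encodes the α form of that kinase, was at 85.9, 59.6 and 68.1 CPM in cKO against 75.7, 72.6 and 76.0 CPM in WT. The cKO libraries lay on both sides of the narrow WT range, and the fold change was 0.953 (0.767 to 1.18, edgeR adjusted p = 0.863). An antisense gene, 9130221H12Rik, overlaps Gsk3a and held 4.49% as many counts, and with no strand setting stated its reads cannot be told from those of Gsk3a.

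Among the scaffolds, Apc lay nearest to a call. It was at 173, 144 and 150.03 CPM in cKO and 193, 199.7 and 240.1 CPM in WT. Every cKO value lay below every WT value, with WT library 3 the highest. Apc, the large protein that binds β-catenin and axin, had a log2 fold change of -0.44 (SE 0.13, 95% confidence interval -0.72 to -0.15), and the p of 0.00618 became an edgeR adjusted p of 0.109. Over 16 alternative fits its log2 fold change ran from -0.52 to -0.33, and the adjusted p ran from 0.0385, by DESeq2, to 0.448, without WT library 3. Only the DESeq2 fit called it.

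Axin1, the scaffold on which the kinases and β-catenin meet, was at 103, 114 and 97.1 CPM in cKO and 96.5, 118 and 91.8 CPM in WT, and the groups overlapped. The fold change was 1.03 (95% confidence interval 0.842 to 1.25, edgeR adjusted p = 0.919). Amer1, a membrane-linked partner of APC encoded on the X chromosome, was at 121, 87.7 and 102 CPM in cKO and 99.3, 102 and 103 CPM in WT. Its cKO libraries spread on both sides of the WT range, with a coefficient of variation of 16.2% against 1.81% in WT. The fold change of Amer1 was 1.02 (0.837 to 1.25, edgeR adjusted p = 0.932).

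Both genes for β-TrCP, the F-box protein that recognises phosphorylated β-catenin, had fold changes below 1 without a call. Btrc was at 81.3, 80.8 and 72.3 CPM in cKO and 92.5, 83.9 and 89.7 CPM in WT. The 2 groups did not overlap, although cKO library 1 and WT library 2 were close. Its fold change was 0.881 (95% confidence interval 0.741 to 1.05, edgeR adjusted p = 0.483). Fbxw11 was at 128, 115 and 111 CPM in cKO and 141, 128 and 118 CPM in WT, with overlapping groups and a fold change of 0.914 (0.762 to 1.10, edgeR adjusted p = 0.656).

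Ctnnb1, the gene for the protein that the complex degrades, was at 1009, 1109 and 955 CPM in cKO and 873, 936 and 844 CPM in WT. All cKO values lay above all WT values, and the lowest cKO library (3) was close to the highest WT library (2). The fold change was 1.16 (95% confidence interval 0.953 to 1.41), and the difference did not pass the test (edgeR adjusted p = 0.47, and 0.35 to 0.82 over the 16 alternatives). The opposite strand of the locus holds part of Ulk4, whose counts came to 1.2% of those of Ctnnb1. Set against Apc within each library, Ctnnb1 had 18.01, 23.76 and 19.66 times the FPKM of Apc in cKO and 13.96, 14.47 and 10.86 times in WT. That pair was picked after its values were seen and was not tested.

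**Figure D2:**
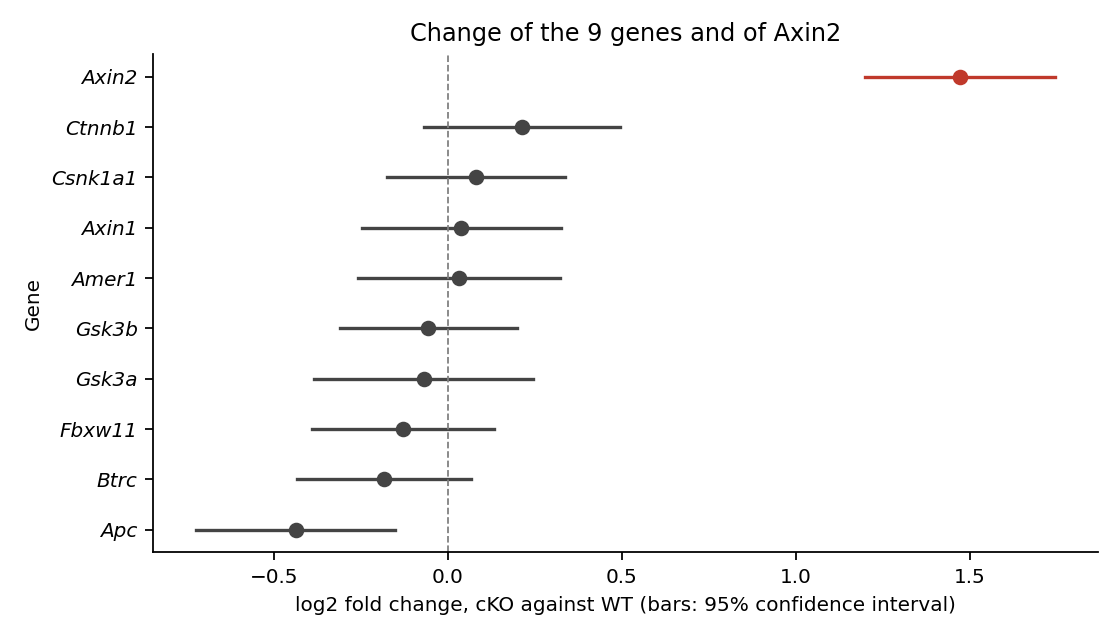
Log2 fold change of the 9 genes and of Axin2, cKO against WT, with 95% confidence intervals from edgeR as bars and a dashed line at no difference. The intervals of 8 members include 0, that of Apc runs from -0.72 to -0.15, and that of Axin2 runs from 1.20 to 1.75.

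The members were deeply covered. The library totals were 15092619 to 17431546 counts, the members had 897 (Gsk3a) to 16679 (Ctnnb1) counts in a library, and the counting error of a member's lowest library was 0.844 to 3.34%. Coefficients of variation over the 3 animals of a group ran from 1.81 to 18.8%. The WT values of Amer1 (1.81%) and Gsk3a (2.52%) lay below the counting error of their lowest WT library, 2.56 and 3.03%.

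Related genes can stand in for members, so the ratio within each of 5 pairs was compared in each library, where library scaling cancels. Axin2 rose while Axin1 was not called. Axin2 was at 143, 118 and 115 CPM in cKO and 44.2, 45.9 and 45.2 CPM in WT. Its log2 fold change was 1.47 ± 0.125 (SE) at an edgeR adjusted p of 0.000127, and it was called in all 16 alternatives. The ratio of Axin2 to Axin1 in FPKM was 0.987, 0.733 and 0.841 in cKO and 0.326, 0.277 and 0.350 in WT. On the log2 scale the ratio was 1.42 higher in cKO, with no overlap between groups. The exact two-sided permutation test gave p = 0.1, the smallest that 3 against 3 allows, and 0.25 adjusted over the 5 pairs. Summed over both axin genes, the level was 51.7, 50.3 and 45.3 FPKM in cKO and 32.1, 38.1 and 31.3 FPKM in WT, or 1.45-fold higher in the means. Axin2 made up 45.9 ± 3.70% of this sum in cKO and 24.1 ± 2.15% in WT (SD, n = 3).

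The kinase pair and the ligase pair kept overlapping ratios. Gsk3a to Gsk3b stood at 1.63, 1.11 and 1.40 in cKO and 1.52, 1.36 and 1.30 in WT, a log2 difference of -0.03 (exact permutation p = 1). Btrc to Fbxw11 stood at 0.431, 0.480 and 0.443 in cKO and 0.446, 0.446 and 0.516 in WT, a log2 difference of -0.06 (exact permutation p = 0.5). Apc2, a relative of Apc, was at 0.164, 0.160 and 0.233 times the FPKM of Apc in cKO and 0.102, 0.147 and 0.149 times in WT. That log2 difference of 0.48 separated the groups (exact permutation p = 0.1, adjusted 0.25), while Apc2 itself had a log2 fold change of 0.03 (edgeR adjusted p = 0.967). Amer2, a relative of Amer1, was at 0.0196 to 0.0759 times the FPKM of Amer1 over the 6 libraries, with overlapping groups (exact permutation p = 0.2).

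**Figure D3:**
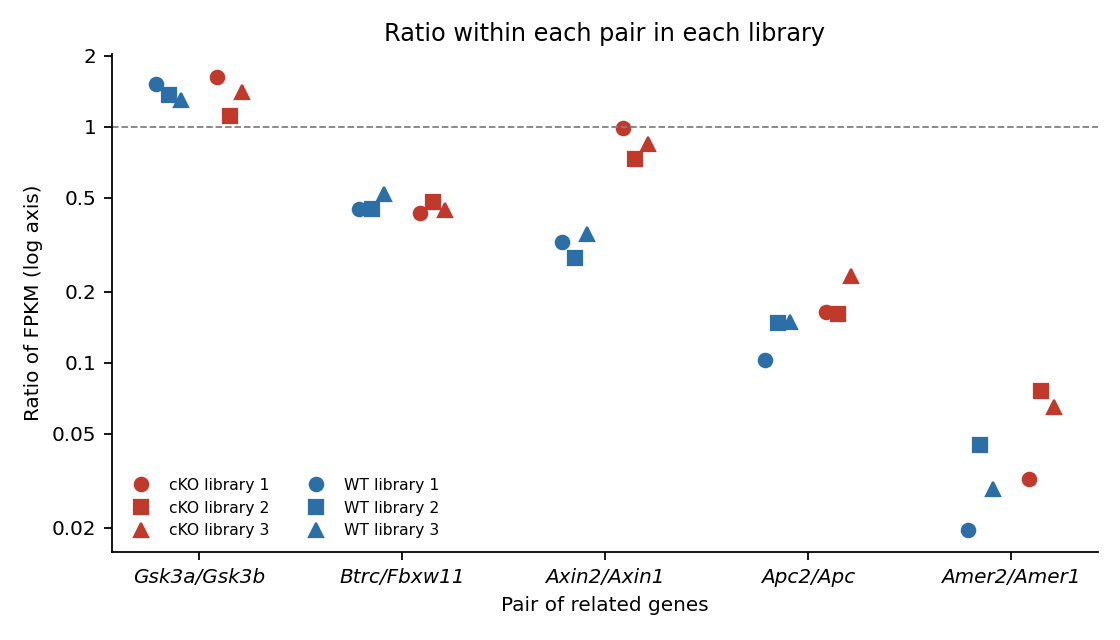
Ratio of FPKM within each pair of related genes (log axis) in each of the 6 libraries, WT in blue and cKO in red, with a dashed line at equal levels. The Axin2 to Axin1 ratio is 0.277 to 0.350 in WT and 0.733 to 0.987 in cKO, while the Gsk3a to Gsk3b and Btrc to Fbxw11 points of the groups overlap.

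The wider machinery around the complex was read from lists of genes by role. Of 9 tested relatives of members, 1 (Axin2) was higher and none lower by any of edgeR, limma-voom and DESeq2, with 3 at an unadjusted p under 0.05. The kinase gene Csnk1g1, a relative of Csnk1a1, had the next smallest p (log2 fold change -0.39, edgeR adjusted p = 0.123). Jup, a relative of Ctnnb1, was the remaining gene at an unadjusted p under 0.05 (log2 fold change -0.43, edgeR adjusted p = 0.196). Every cKO value of Jup lay below every WT value, and its ratio to Ctnnb1 was not among the pairs compared. Neither edgeR nor DESeq2 nor limma-voom called any of the 7 ligase core genes, such as Cul1 and Rbx1, and none had an unadjusted p under 0.05. Their log2 fold changes ran from -0.08 to 0.20, with Ube2m, a NEDD8-conjugating enzyme that helps switch on cullin ligases, at 0.20 (edgeR adjusted p = 0.478) and the ring protein gene Rbx1 at 0.19 (edgeR adjusted p = 0.659). Of 9 subunits of PP2A, a phosphatase that acts on the complex, none was called by the same 3 tools (1 at an unadjusted p under 0.05, Ppp2r5a at 0.38, edgeR adjusted p = 0.203), and Ppp2cb stood at 0.25 (0.0749 without cKO library 2 to 0.374 without cKO library 3).

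Regulators of the complex held 1 call among 14 tested. Prickle1, a gene of planar polarity signalling, fell from 92.8, 98.2 and 101 CPM in WT to 68.6, 66.5 and 73.7 CPM in cKO, a log2 fold change of -0.49 ± 0.111 (SE) at an edgeR adjusted p of 0.0389. The call was lost in each of the 6 fits that left out 1 library, at adjusted p from 0.0622 to 0.199, and with both FPKM fits. Dact1, whose product binds Dishevelled, stood at 0.55 (edgeR adjusted p = 0.12). The tankyrase genes Tnks (-0.17) and Tnks2 (0.06), whose products mark axin for removal, and the Dishevelled genes Dvl1 (0.05), Dvl2 (-0.04) and Dvl3 (-0.09) were not called, and these 5 were named after their values were seen.

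With all 6 libraries and the filter on low counts, edgeR called no partner of β-catenin itself in either of its roles. Of 9 tested genes of adherens junctions, those 3 tools called none, with 2 at an unadjusted p under 0.05: the α-catenin genes Ctnna2 (log2 fold change -0.56, edgeR adjusted p = 0.141) and Ctnna3 (-0.81, edgeR adjusted p = 0.201). Ctnna2 was called lower without cKO library 2 (edgeR adjusted p = 0.0198) and with no low-count filter (0.046). The α-catenin gene Ctnna1 had a log2 fold change of 0.18 (edgeR adjusted p = 0.522). Over the 6 libraries it was at 66.7 to 88.9 FPKM, against 4.1 to 7.5 for Ctnna2 and 0.44 to 1.1 for Ctnna3. Of 16 nuclear partners none was called by edgeR with the filter on low counts or by limma-voom and 1, Tle3, by DESeq2, with 4 at an unadjusted p under 0.05. With no low-count filter edgeR called 1 higher (Tle3, adjusted p = 0.00889) and 2 lower. Tle3, which encodes a co-repressor of TCF factors, had 103.8 ± 8.07 CPM in WT and 148 ± 23.3 CPM in cKO (0.52, edgeR adjusted p = 0.0732, and 0.0174 without cKO library 2). The acetyltransferase gene Ep300 stood at -0.51 (edgeR adjusted p = 0.19), at -0.304 without WT library 3 (0.659), and was 1 of those 2 called lower with no filter (0.0141).

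Of 15 tested Wnt target genes, 8 were higher in cKO by each of the 3 tools, and none was lower by any of them or at an unadjusted p under 0.05, with a list median of 0.64 against 0.00 over all tested genes. These 8 include Axin2, already called above among the relatives of members. Lef1 and Tcf7 are in the nuclear partner list too. Sp5, a transcription factor gene, rose by 5.55 on the log2 scale and the feedback inhibitor gene Nkd1 by 2.17 (edgeR adjusted p = 7.17e-07 and 6.73e-06). The count of targets called higher was 7 or 8 in the 16 alternatives. Of the 7 not called by edgeR, Tcf7 (-0.30), Nkd2 (-0.26) and Lgr5 (-0.04) had negative log2 fold changes. Positive ones were those of Znrf3 (0.05), Lef1 (0.10), Myc (0.11) and Bambi (0.20). Whether the target list moved apart from the 9 members was not tested.

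**Figure D4:**
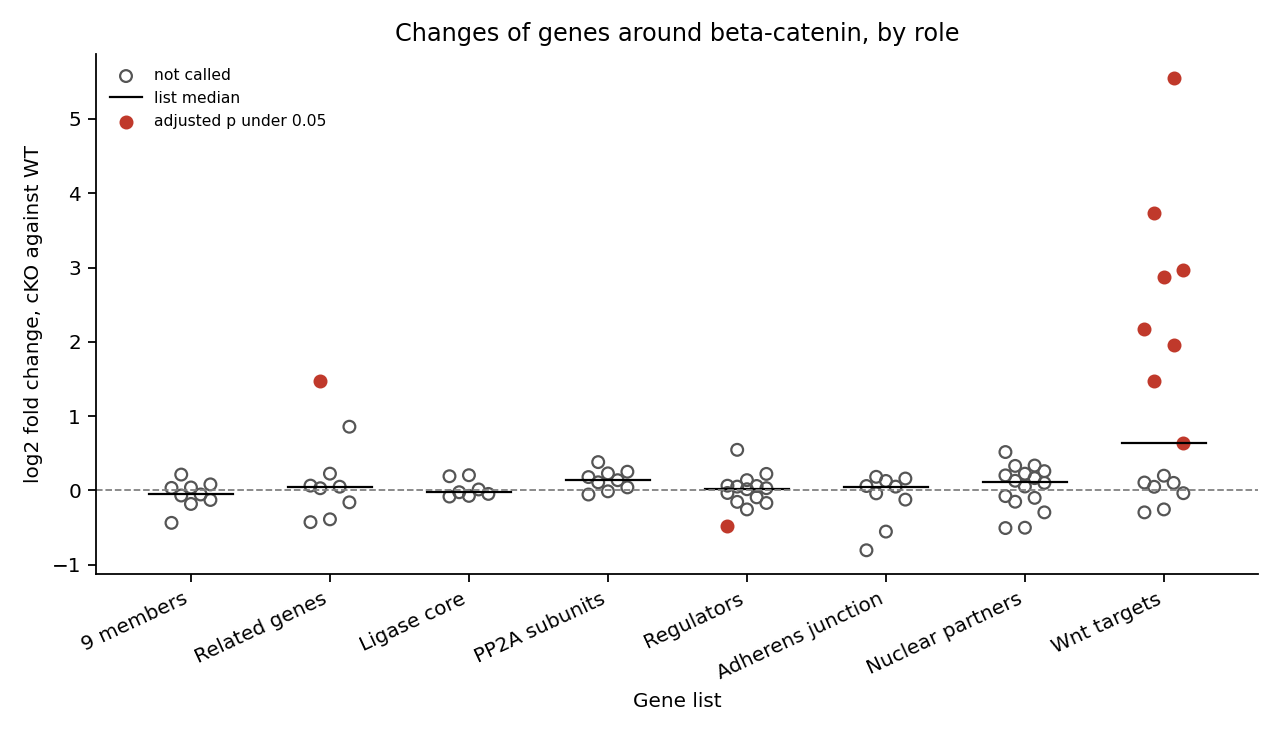
Log2 fold change, cKO against WT, of each tested gene in 8 lists, with filled points for an edgeR adjusted p under 0.05, open points for the rest and black bars at list medians. The 9 members lie between -0.44 and 0.21 with no filled point, and 8 of 15 Wnt targets are filled, at 0.64 to 5.55. Axin2 is shown under both related genes and Wnt targets, and Lef1 and Tcf7 under both nuclear partners and Wnt targets.

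Across the 6 libraries, the patterns most like those of Ctnnb1 and Apc were sought among the 10723 other protein-coding genes that averaged 10 CPM or more, by the root-mean-square difference in log2 CPM after removing each gene's mean. The 3 nearest to Ctnnb1 were Rab18 (0.0239), Tmx3 (0.0252) and a gene listed without a symbol as MGP_C57BL6NJ_G0018774 (0.0254), where Ctnnb1 varied about its own mean by 0.13. Those nearest to Apc were Cers6 (0.0359), Noct (0.0375) and Mbd5 (0.0478), where Apc varied by 0.251. None of these 6 genes was called (edgeR adjusted p = 0.146 to 0.505). The likeness is a description over 6 libraries and carries no test.

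In the coordinates of the files Csnk1a1 lies on chromosome 18 from 63117222 to 63152689, Apc on chromosome 18 from 33652686 to 33758150, Axin1 on chromosome 17 from 26344722 to 26406631 and Amer1 on chromosome X from 94686009 to 94709971. Gsk3a lies on chromosome 7 from 24463927 to 24473520, Gsk3b on chromosome 16 from 37445514 to 37602467 and Btrc on chromosome 19 from 46090453 to 46268501. Fbxw11 lies on chromosome 11 from 31891277 to 32003966 and Ctnnb1 on chromosome 9 from 127206184 to 127237516. These positions carry C57BL/6NJ strain identifiers, and for 0 of the 9 members did the start equal that in GRCm38.p6, so they must not be joined to the promoter positions above. Each count covers a whole protein-coding gene, so exons and transcript forms were not separated.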

How the data were processed

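RNA of 6 whole testes (3 cKO, 3 WT) was isolated with poly-T beads and sequenced on an Illumina NovaSeq, per the labels' protocols. The submitters' processing notes name HISAT2 2.0.5 and build GRCm38. The sources used here do not give the counting tool, annotation release or strand setting. The gene identifiers are of the C57BL/6NJ strain in 41096 of 42747 rows. The deposited counts are whole numbers per gene, not normalised. The deposited FPKM are scaled by gene length and library size, as the authors computed them.

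Counts passing filterByExpr were fitted in R 4.3.3 with edgeR 4.0.16 (TMM, quasi-likelihood test, no covariate). P-values were adjusted by Benjamini-Hochberg over all 18383 genes at a threshold of 0.05. A standard error is |log2 fold change|/√F, and intervals are at 95%. Pair ratios used FPKM without a pseudocount and exact permutation over libraries. Alternatives were other scalings, DESeq2 1.42.0, limma 3.58.1 (voom, and trend on log2(FPKM + 0.1) and log2(FPKM + 1)), other filters, a replicate block and leaving out each library. The fit was tested on simulated data, where 14 of 188 calls fell on unchanged genes. It recovered 74% of changes of 1 and 100% of changes of 2 on the log2 scale. Changes as small as those of the members were not simulated. Within a group, the chi-square per degree of freedom between libraries was 12.2 to 37.4, so they differed beyond counting noise and none was counted as a repeat.

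The members, the 16 other lists (145 of 151 symbols over all lists matched, 1 through a synonym) and the tests were chosen with earlier results of these data known. The rule for named genes took the members, the pairs, the 2 with the smallest p in each other list and 3 nearest patterns each for Ctnnb1 and Apc. Other genes named in the text, among them Jup, Gata4, Wt1, Ctnna1 and Tcf7, fall outside that rule. Results for some marker lists and some genes of that rule are not reported here. Promoters are RefSeq, GRCm38.p6, and were not mixed with the files' coordinates.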

Additional observations from a re-analysis of the deposited data

How the results depend on the processing

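Of 144 values of the 9 members over 16 alternatives, 1 was called (Apc by DESeq2, so the number of called members was 1 there and 0 in the others) and 5 had the sign turned, each in a fit without 1 library and for a gene not called. With 1 library left out, log2 fold changes ran from -0.0315 to 0.162 for Axin1, -0.225 to 0.0452 for Gsk3a, -0.109 to 0.00696 for Gsk3b, -0.0936 to 0.142 for Amer1, -0.0475 to 0.298 for Rbx1, -0.142 to 0.657 for the erythroid gene Alas2 and -0.172 to 0.233 for Apc2. The pair differences ran from -0.161 to 0.118 for Gsk3a to Gsk3b and -0.1005 to 0.0153 for Btrc to Fbxw11, and the other 3 pairs stayed positive in every such fit.

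Over all genes, 276 were higher and 339 lower in the reported fit. The counts were 527 and 574 by DESeq2, 149 and 223 with log2(FPKM + 0.1), 156 and 241 with log2(FPKM + 1), and 613 and 651 with no filter. Leaving out 1 library gave 105 to 342 higher and 167 to 399 lower. The cause was not tested.

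Whether replicate numbers pair the samples was not settled, since deviations from means of 3 libraries are tied to each other. Deviations of same-numbered libraries correlated at 0.0172, 0.184 and 0.0325. Those of different-numbered libraries ran from -0.173 (cKO library 1 with WT library 2) to 0.157 (cKO library 1 with WT library 3). With the replicate block 324 genes were higher and 372 lower and 0 members were called, and the Leydig cell genes Cyp11a1 and Insl3 and 3 interstitial markers became called higher. With no filter 3 Leydig cell and 5 interstitial markers were called higher and 1 germ cell marker lower. Both FPKM fits lost the erythroid and the higher myoid call. The block left the pair differences as they were, since it averages the same values (1.42 for Axin2 to Axin1, exact sign-flip p = 0.25, the smallest that 3 pairs allow).

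Counts per gene in a whole organ do not show the Sertoli cell share, the deleted exon or protein levels.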
